A study of Homo sapiens with 9 samples.

Results

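The ESCRT-III genes described here are 10 genes of the membrane scission machinery: the filament subunits CHMP1A, CHMP1B, CHMP2A, CHMP2B, CHMP3, CHMP4B, CHMP5 and CHMP6, and the ATPases VPS4A and VPS4B. They were chosen by name from the 43444 loci of the table, taking for each gene the locus with the most counts among those whose name held it, and all 10 were found. RNA was sequenced from A549 cells, a human lung adenocarcinoma line grown in DMEM with fetal bovine serum. Of the 9 libraries 3 came from cells given the vehicle DMSO, 3 from cells given RSL3, which inhibits GPX4, at a dose of 2 µM, and 3 from cells given this dose of RSL3 plus 5 µM of Fer-1 (ferrostatin-1), a scavenger of lipid radicals. Treatment lasted 24 h. All 3 groups were the same line, and Fer-1 without RSL3 was not analysed here. Whether libraries within a group derive from separate cultures is not stated in the labels, so p-values measure the spread between these samples, which may be technical.

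ESCRT-III proteins polymerise on the cytosolic face of a membrane neck and cut it from the inside, in the sorting of cargo into multivesicular bodies, in the last step of cell division, in virus budding and in the repair of a torn plasma membrane. CHMP6 and CHMP4B start and build the filament, CHMP2A, CHMP2B and CHMP3 cap and constrict it, and CHMP1A, CHMP1B and CHMP5 join late. The hexameric ATPases VPS4A and VPS4B then pull the subunits out again. In ferroptosis, death by peroxidation of membrane lipids, this machinery has been described as a brake that sheds or reseals damaged plasma membrane, and knockdown of CHMP5 or CHMP6 has been reported to sensitise cells to it.

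Of the 10 loci, 7 carried the name of the member alone and 3 joined it with other genes, so that values given for CHMP1B, CHMP3 and VPS4A are those of the whole joined locus. CHMP2B lay on chromosome 3 at 87227271 to 87256035, CHMP2A on chromosome 19 at 58551566 to 58555105, CHMP4B on chromosome 20 at 33811348 to 33854619, and CHMP5 on chromosome 9 at 33264879 to 33282297 (GRCh38 throughout). CHMP6 lay on chromosome 17 at 80991598 to 81000547, CHMP1A on chromosome 16 at 89640816 to 89657738, and VPS4B on chromosome 18 at 63389190 to 63422483. CHMP1B, a gene of 1 exon, sat inside a locus shared with GNAL on chromosome 18 at 11689264 to 11885685, and its own GENCODE 29 exons made up 26.6% of the exonic bases annotated for the genes of that locus. The share was 47.3% for CHMP3, joined with RNF103 and their readthrough transcript on chromosome 2 at 86500964 to 86623866. It was 36.5% for VPS4A, joined with SNTB2 and AC026464 on chromosome 16 at 69187129 to 69327106. How the reads of a joined locus divide between its genes was not resolved in the table.

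The labels do not state whether the libraries kept strand, so opposite-strand neighbours may add reads to 5 members. In GENCODE 29 the exons of COG8 cover 22% of the exonic bases of VPS4A, those of AC127496.6 cover 21.5% of CHMP6 and those of CHMP1B-AS1 cover 18.1% of CHMP1B. For CHMP1A (SPATA33) and CHMP3 (AC015971.1) the overlap was 1.37%. CHMP1B-AS1 had a locus of its own with 57 to 121 counts per library, against 4144 to 5591 in the locus of CHMP1B. The copies CHMP4BP1 and CHMP1B2P held 19 to 54 and 0 to 12 counts per library, and reads shared with them may have been split.

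RefSeq promoter windows (GRCh38.p14) were matched for 8 of the 10 members, all but CHMP3 and CHMP6. The 250 bases before the start site are printed for the members nearest to a change, CHMP2B, VPS4A and CHMP1A, and for CHMP5, the 1 member with a match to a searched motif. Capitals mark that match. CHMP2B reads from chr3:87227059-87227308 on the plus strand, VPS4A from chr16:69311100-69311349 on the plus strand, CHMP1A from chr16:89657709-89657958 on the minus strand and CHMP5 from chr9:33264799-33265048 on the plus strand.
CHMP2B: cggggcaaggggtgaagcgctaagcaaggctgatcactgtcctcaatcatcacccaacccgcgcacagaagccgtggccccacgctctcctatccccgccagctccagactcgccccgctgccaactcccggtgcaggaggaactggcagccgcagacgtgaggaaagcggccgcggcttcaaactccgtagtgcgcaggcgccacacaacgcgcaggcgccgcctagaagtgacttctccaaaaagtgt
VPS4A: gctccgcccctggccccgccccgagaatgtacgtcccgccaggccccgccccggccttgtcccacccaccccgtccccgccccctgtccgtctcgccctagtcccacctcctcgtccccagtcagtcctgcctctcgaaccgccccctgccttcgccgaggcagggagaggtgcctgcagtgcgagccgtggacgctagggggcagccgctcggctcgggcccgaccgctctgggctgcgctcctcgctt
CHMP1A: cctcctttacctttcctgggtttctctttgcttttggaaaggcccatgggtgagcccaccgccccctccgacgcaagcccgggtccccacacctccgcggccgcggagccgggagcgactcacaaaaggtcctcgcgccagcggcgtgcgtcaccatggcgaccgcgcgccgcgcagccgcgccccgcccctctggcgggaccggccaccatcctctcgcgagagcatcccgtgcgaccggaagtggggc
CHMP5: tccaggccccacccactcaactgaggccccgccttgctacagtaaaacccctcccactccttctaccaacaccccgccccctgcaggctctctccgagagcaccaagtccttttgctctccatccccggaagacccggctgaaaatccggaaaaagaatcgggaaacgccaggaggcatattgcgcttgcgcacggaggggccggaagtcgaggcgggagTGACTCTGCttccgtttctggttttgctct
The 8 windows had a GC content of 60% (CHMP5) to 74.8% (VPS4A), against a median of 58% over all windows of the table. Both strands were searched for TCACGTGA, the core bound by TFEB at lysosomal genes, for TGACNNNGC, the antioxidant response core bound by NRF2, and for TGATGNAA, a core of ATF4 sites. TCACGTGA and TGATGNAA were in 0 of the 8 windows, against 0.854% and 3.14% of all 35116 windows. TGACNNNGC was in 1 of the 8, starting 30 bases before the start site of CHMP5, against 10.9% of all windows. The start site of VPS4A lies inside its joined locus, so the VPS4A window is not the promoter of all reads counted there. The windows of CHMP2B, CHMP1A and CHMP5 also run past the start of the assembled locus, and the match of CHMP5 lies inside its counted locus.

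Library totals ran from 39143521 to 45855255 estimated counts. The 10 member loci took 0.06104 to 0.06286% of a library with DMSO, 0.05915 to 0.06004% with RSL3 and 0.05787 to 0.05979% with both compounds. The joined VPS4A locus held the most counts of the members in every library. All 10 passed the minimum level of the tests, an FPKM of 1 in 3 libraries, as 17297 loci did, and held 270 (CHMP6) or more counts in every library. Levels are given as FPKM, the authors' fragments per kilobase of transcript scaled to sequencing depth, to compare genes, and as CPM, counts scaled to the size of the library, to compare libraries. In bulk RNA fewer cells that express a gene and less of its RNA per cell cannot be told apart. Changes were tested in edgeR's quasi-likelihood model over all tested loci with Benjamini-Hochberg adjustment, and loci with an adjusted p below 0.05 are written as called. As checks of treatment, CXCL8 rose from 3.52 ± 0.814 to 51.1 ± 9.19 CPM with RSL3 and SLC7A11 from 433 ± 15.4 to 1025 ± 58.3 CPM, and GPX4, the target of RSL3, was not called (10.3 ± 1.78 against 10.1 ± 0.69 CPM). Of the epithelial markers KRT7, KRT8 and KRT18 were at 514 CPM or more in every library. KRT19, at most 1.56 CPM, and CDH1 were below the minimum level, and EPCAM had no locus under that name. The sum of the 5 measured markers ran from 2428 to 2469 CPM with DMSO, 2180 to 2365 with RSL3 and 2166 to 2253 with both compounds. The sum of 6 fibroblast markers, none of them at 0 in every library, ran from 16.4 to 128 CPM with DMSO, 13 to 18.7 with RSL3 and 12.3 to 13.4 with both. The sum of 4 endothelial markers ran from 3.66 to 5.26 CPM with DMSO, 6.31 to 7.27 with RSL3 and 3.62 to 5.76 with both, and that of 5 blood markers from 3.4 to 4.06, 3.71 to 3.91 and 2.22 to 2.79 CPM. Of the endothelial markers EGFL7, in a locus joined with MIR126, rose with RSL3 (log2 0.91, adjusted p = 0.00745), while CDH5 and VWF were at most 0.505 and 0.396 CPM. KDR, also on the endothelial list, had no locus under that name. DMSO replicates 1 and 2 stood apart, with COL1A1 at 49.3 and 62.6 CPM against 11.5 CPM in DMSO replicate 3. Leaving both out was an alternative chosen after seeing the data, in which the remaining DMSO library is assumed to vary like the other groups. The VPS4A locus then differed by -0.154 on the log2 scale with RSL3, against -0.146 with all libraries. CHMP2B differed by -0.195 with both compounds, against -0.243. With 1 DMSO library left, calls of this fit cannot be set beside those of the full fit. The part of these markers in the results was not tested.

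With DMSO the members spanned a 9.26-fold range of FPKM. CHMP2B was highest, at 18 ± 0.888 FPKM (SD, n = 3), above 93.5% of the tested loci. VPS4B followed at 11.7 ± 0.47, the VPS4A locus at 9.84 ± 0.222 and CHMP5 at 9.34 ± 0.676 FPKM, and the libraries of the last pair overlapped. CHMP4B, the main filament subunit, stood at 6 ± 0.432 FPKM. CHMP1A at 4.78 ± 0.291 and CHMP2A at 4.54 ± 0.139 FPKM overlapped each other, ahead of the CHMP1B locus at 4.19 ± 0.22 and the CHMP3 locus at 2.98 ± 0.0401 FPKM. CHMP6, which nucleates the filament, was lowest at 1.95 ± 0.203 FPKM, above 41.7% of the tested loci, whose median was 2.36 FPKM. Every other neighbouring pair in this order was separate in the DMSO libraries. Length enters these values through the assembled transcripts, so the order of joined loci may not be that of the member genes.

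**Figure D1:**
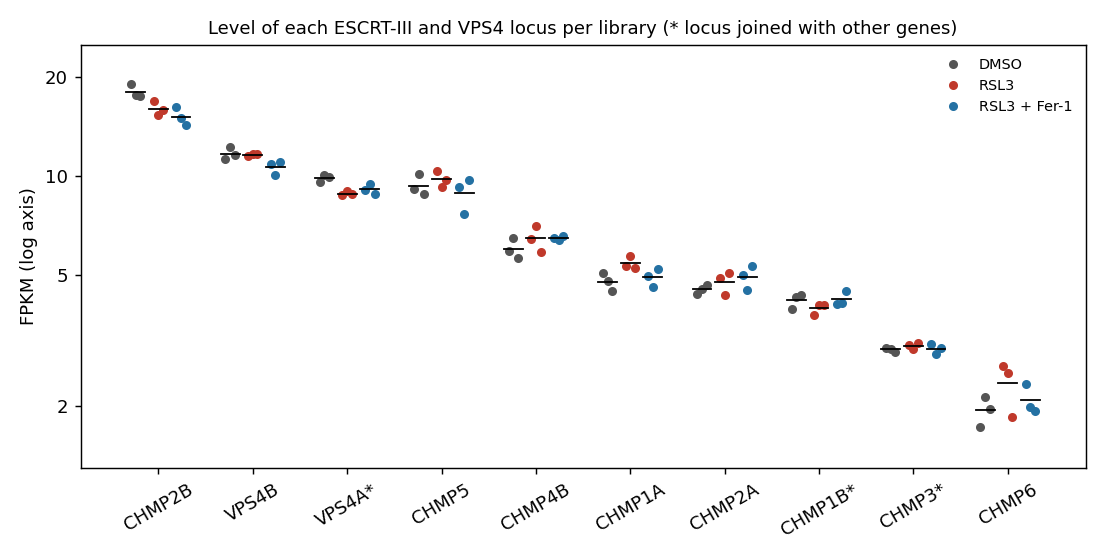
FPKM per library (log axis) of the 10 members with DMSO, RSL3 and RSL3 plus Fer-1, ordered by the DMSO mean; points are libraries, short horizontal lines are group means, and an asterisk marks a locus joined with other genes. The order runs from CHMP2B at 18 to CHMP6 at 1.95 FPKM with DMSO.

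RSL3 against DMSO asks which RNA levels differ when RSL3 is given. These data hold no measure of GPX4 activity, so effects of GPX4 inhibition and other effects of RSL3 cannot be told apart. Of the 10 members 1 passed the test, the joined VPS4A locus, which fell by 0.15 on the log2 scale. Across all 17297 tested loci 16.5% were called, 9.04% higher and 7.46% lower. Of the members 4 had RSL3 libraries that did not overlap the DMSO libraries, 2 above and 2 below, against 30.8% of all loci. The other 9 members did not pass, and their 95% intervals all lay between -0.29 and 0.61 on the log2 scale, or between 17.9% lower (CHMP2B) and 52.6% higher (CHMP6) than DMSO. The median change of the members was 0.06 on the log2 scale, against -0.01 over all tested loci, and the median absolute change was 0.1 against 0.16. These medians are a description, since the loci were not matched for level. All members but CHMP6 lay above the median FPKM of the tested loci with DMSO.

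Among the filament starters, CHMP4B stood at 22.2, 24.4 and 21.3 CPM in the DMSO libraries and at 24.5, 26.8 and 22.3 CPM with RSL3. The groups overlapped, with a log2 difference of 0.12 (SE 0.0889, adjusted p = 0.452). CHMP6 stood at 6.46, 7.96 and 7.31 CPM with DMSO and at 10, 9.53 and 6.96 CPM with RSL3. It had the widest relative spread of the members: RSL3 replicates 1 and 2 lay above every DMSO library and RSL3 replicate 3 lay among them. The log2 difference was 0.29 (SE 0.158, adjusted p = 0.257). CHMP6 also rested on the fewest reads, 270 to 399 counts per library, among the members.

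In the capping and constricting group, CHMP2B, which with CHMP2A recruits VPS4 to the filament, stood at 81.7, 75.6 and 75.2 CPM with DMSO and at 73, 66.3 and 68.3 CPM with RSL3. All RSL3 libraries lay below all DMSO libraries, and the log2 difference of -0.16 (SE 0.059) had an adjusted p of 0.0586. Over all loci 14.9% had RSL3 libraries wholly below the DMSO libraries. CHMP2A stood at 11.2, 11.5 and 11.9 CPM with DMSO and at 12.5, 11.2 and 13 CPM with RSL3, overlapping, with a log2 difference of 0.08 (SE 0.12, adjusted p = 0.74). The CHMP3 locus, which also holds RNF103, was the steadiest, at 60.8 to 65.5 CPM over all 9 libraries. Its RSL3 libraries lay just above its DMSO libraries, with a log2 difference of 0.05 (SE 0.0545, adjusted p = 0.648).

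Of the late subunits, CHMP1A, which binds VPS4 and the microtubule-severing ATPase spastin, stood at 43.9, 41.6 and 39.1 CPM with DMSO and at 46.8, 50.1 and 45.9 CPM with RSL3. Every RSL3 library lay above every DMSO library, as in 15.8% of all loci, and the log2 difference of 0.20 (SE 0.0693) narrowly missed the threshold (adjusted p = 0.0519). With DESeq2 both CHMP1A and CHMP2B passed, with adjusted p values of 0.0309 and 0.0367. In edgeR CHMP1A passed without DMSO replicate 1 (adjusted p = 0.0344) or RSL3 plus Fer-1 replicate 2 (adjusted p = 0.0475), and CHMP2B without RSL3 replicate 1 (adjusted p = 0.0355), with library totals alone (adjusted p = 0.0333) and with its loci summed (adjusted p = 0.0274), among 5 of 20 settings in which it was called. Over all alternatives the adjusted p ran from 0.0309 to 0.197 for CHMP1A and from 0.0274 to 0.512 for CHMP2B. The CHMP1B locus, shared with GNAL, stood at 107, 116 and 119 CPM with DMSO and at 104, 111 and 111 CPM with RSL3, overlapping, with a log2 difference of -0.07 (SE 0.0512, adjusted p = 0.441). CHMP5, which binds the VPS4 cofactor LIP5, stood at 28.5, 31.7 and 27.7 CPM with DMSO and at 32.8, 29.2 and 30.7 CPM with RSL3. These groups overlapped as well, with a log2 difference of 0.08 (SE 0.0885, adjusted p = 0.649).

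Of the ATPases, the VPS4A locus stood at 181, 190 and 188 CPM with DMSO and at 166, 171 and 167 CPM with RSL3, so that all RSL3 libraries were lower. It fell by 0.15 in log2 (SE 0.0394, adjusted p = 0.00954), or 1.11-fold. Because SNTB2 and AC026464 share this locus, the fall cannot be assigned to VPS4A. VPS4B, a locus of its own, stood at 60.8, 65.9 and 62.6 CPM with DMSO and at 62.8, 63.3 and 63.2 CPM with RSL3. The VPS4B means were 63.1 CPM in both groups, and the 95% interval of the difference ran from -0.12 to 0.12 on the log2 scale (adjusted p = 0.999). The difference between the VPS4A and VPS4B changes was not tested.

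**Figure D2:**
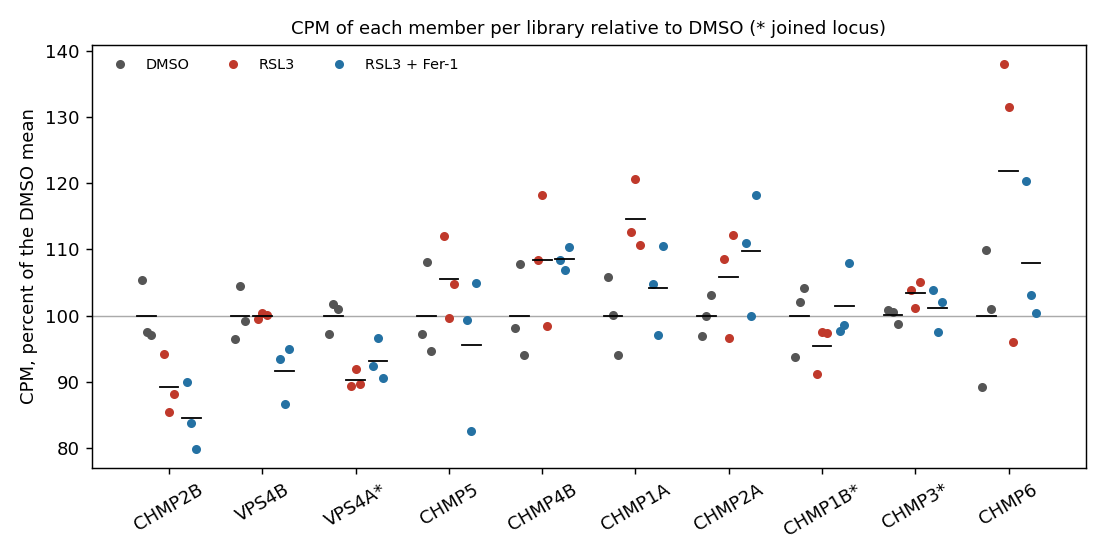
CPM of each member in each library as a percent of its DMSO mean; points are libraries, short horizontal lines are group means, and an asterisk marks a joined locus. CHMP1A and the CHMP3 locus are higher and CHMP2B and the VPS4A locus are lower in every RSL3 library than in every DMSO library, and CHMP6 spreads most widely.

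RSL3 plus Fer-1 against RSL3 asks which RNA levels differ when the radical scavenger is added. Fer-1 without RSL3 was not analysed, so effects of less lipid peroxidation and other effects of Fer-1 cannot be told apart. The RSL3 libraries are shared with the comparison of RSL3 with DMSO. Of the 10 members 0 passed, by edgeR and by DESeq2, while 6.46% of all tested loci were called, 2.47% higher and 3.99% lower. The libraries of the groups did not overlap for 3 members, against 22.7% of all loci. At an unadjusted p under 0.05 there was 1 member of 10, against 3030 of the 17297 tested loci. That member was VPS4B, at 58.9, 54.6 and 59.9 CPM with Fer-1 against 62.8, 63.3 and 63.2 CPM with RSL3 alone. All its Fer-1 libraries were lower, as in 11.7% of all loci, and the log2 difference was -0.13 (SE 0.0574, adjusted p = 0.246). CHMP1A stood at 43.5, 40.3 and 45.9 CPM with Fer-1 and lay below every RSL3 library, with a log2 difference of -0.14 (SE 0.0691, adjusted p = 0.302). That separation rested on 45.92 CPM in RSL3 plus Fer-1 replicate 3 against 45.95 CPM in RSL3 replicate 3.

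None of the remaining members passed either. CHMP5 stood at 29.1, 24.2 and 30.7 CPM with Fer-1 (-0.14 on the log2 scale, SE 0.0885, adjusted p = 0.449), and replicate 2 was the low library. CHMP6 stood at 8.71, 7.47 and 7.28 CPM (-0.18, SE 0.157, adjusted p = 0.645). The VPS4A locus, at 172, 180 and 169 CPM, overlapped the RSL3 libraries (0.04, SE 0.0394, adjusted p = 0.641). The CHMP1B locus, at 111, 112 and 123 CPM, lay above all RSL3 libraries (0.09, SE 0.0512, adjusted p = 0.398), as in 11% of all loci. CHMP2B, CHMP2A, CHMP3 and CHMP4B differed by -0.08, 0.05, -0.03 and 0.00 on the log2 scale, with adjusted p of 0.556 to 0.995. The 95% intervals of all 10 members ran from 29.2% lower (CHMP6) to 23.1% higher (CHMP2A), and their median change was -0.05 on the log2 scale against 0.00 over all tested loci.

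RSL3 plus Fer-1 against DMSO asks what differs from vehicle-treated cells when both compounds are present. It shares its DMSO libraries with the comparison of RSL3 alone, and its Fer-1 libraries with the comparison above. CHMP2B fell, and was the 1 member of 10 to pass, where 6.69% of all tested loci were called, 4.03% higher and 2.66% lower. The libraries of the groups did not overlap for 3 members, all lower with both compounds, against 23.3% of all loci. CHMP2B stood at 69.7, 64.9 and 61.9 CPM, below all DMSO libraries, and fell by 0.24 in log2 (SE 0.059, adjusted p = 0.00994), or 1.18-fold. That call ended without DMSO replicate 1 (adjusted p = 0.0696), without RSL3 plus Fer-1 replicate 2 (adjusted p = 0.0521) or replicate 3 (adjusted p = 0.0958), and in limma on FPKM, while over all alternatives its adjusted p ran from 0.00174 to 0.3. A second assembled locus named CHMP2B lies within the gene on the opposite strand, at 87238172 to 87240004. It held 142, 81 and 184 counts with DMSO, 71, 63 and 76 with RSL3 and 62, 92 and 80 with RSL3 plus Fer-1, and it was below the minimum level of the tests.

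The VPS4A locus and VPS4B lay below all DMSO libraries too, at -0.10 (SE 0.0393, adjusted p = 0.137) and -0.13 on the log2 scale (SE 0.0573, adjusted p = 0.24), as 11.1% of all loci did. The others overlapped with DMSO. CHMP2A stood at 12.8, 11.5 and 13.7 CPM with Fer-1 (0.13, SE 0.12, adjusted p = 0.651) and CHMP4B at 24.5, 24.2 and 25 CPM (0.12, SE 0.0887, adjusted p = 0.556). CHMP1A and CHMP6 differed by 0.06 and 0.11, and CHMP1B, CHMP3 and CHMP5 by 0.02, 0.02 and -0.06 on the log2 scale, with adjusted p of 0.759 to 0.935. The 95% intervals of the members lay between 22.3% lower (CHMP2B) and 35.1% higher (CHMP6).

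**Figure D3:**
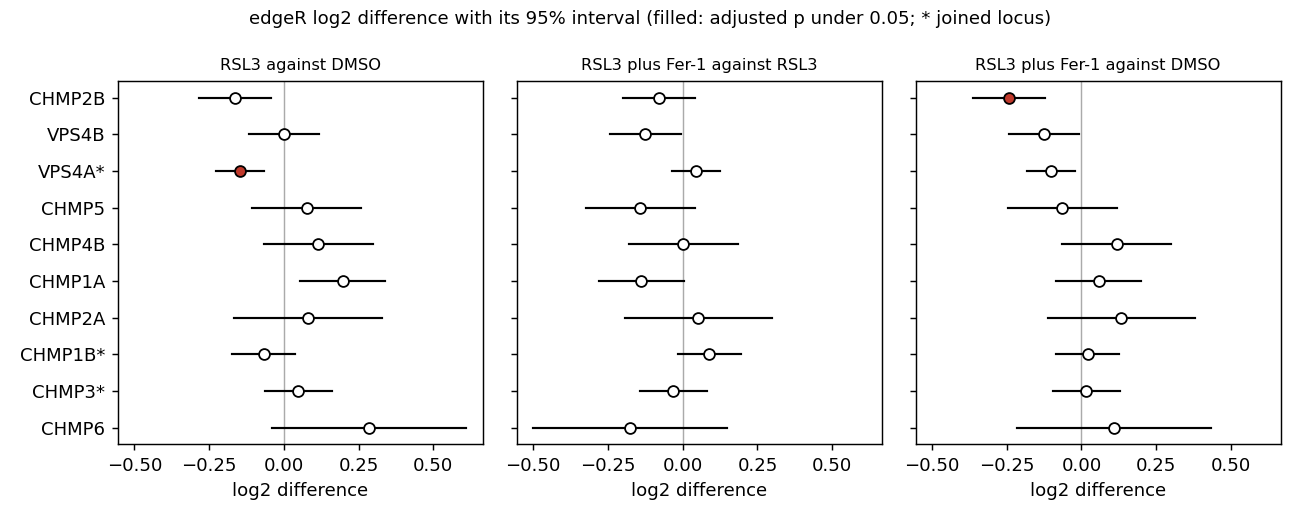
The edgeR log2 difference of each member with its 95% interval in the 3 comparisons; filled points passed at an adjusted p under 0.05 and an asterisk marks a joined locus. Filled points are the VPS4A locus at -0.15 for RSL3 against DMSO and CHMP2B at -0.24 for RSL3 plus Fer-1 against DMSO.

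The rest of the ESCRT machinery was described from lists of genes. Of all tested loci, 9.04% were called higher and 7.46% lower with RSL3 against DMSO. With both compounds against DMSO these shares were 4.03% and 2.66%, and with Fer-1 added to RSL3 they were 2.47% and 3.99%. The other ESCRT-III subunits CHMP4A, CHMP4C, CHMP7 and IST1 had 0 of 4 called in each comparison by edgeR. With RSL3 against DMSO 4673 of the 17297 tested loci had an unadjusted p under 0.05. Of these 4 subunits 1 did, the CHMP4A locus, which is joined with NEDD8 and others. It stood at 304 ± 2.83 CPM against 318 ± 1.13 CPM with DMSO (adjusted p = 0.183). Against DMSO, RSL3 plus Fer-1 also had 1 at an unadjusted p under 0.05, as had 3097 of all tested loci. This was CHMP4C, at 6.71 ± 2.11 against 4.97 ± 0.257 CPM (adjusted p = 0.236). CHMP4C passed without RSL3 plus Fer-1 replicate 3 (adjusted p = 0.0295). The Bro1 adaptors and the calcium sensor PDCD6, which brings ALIX (PDCD6IP) and ESCRT-III to a wounded membrane, had 0 of 4 called in each comparison, and so had ESCRT-II with 0 of 3, none at an unadjusted p under 0.05. The PDCD6 locus, joined with SDHA, AHRR and others, differed from DMSO by -0.09 on the log2 scale with RSL3 (adjusted p = 0.112, and 0.0365 without RSL3 replicate 2) and ALIX by 0.09 with both compounds (adjusted p = 0.239), each at an unadjusted p under 0.05. The locus of the ESCRT-II subunit VPS36, joined with THSD1, differed by -0.18 with RSL3 (adjusted p = 0.218) and by -0.04 with both compounds (adjusted p = 0.905), and SNF8 of the same complex by 0.12 when Fer-1 was added (adjusted p = 0.443). In ESCRT-0 1 of 3 rose with RSL3, the ubiquitin-binding subunit HGS, with means of 62 ± 3.09 CPM under DMSO and 73.2 ± 6.93 CPM under RSL3 (adjusted p = 0.00873). That call ended without DMSO replicate 1, RSL3 replicate 1 or RSL3 replicate 2 and in limma on FPKM, at adjusted p of 0.0522 to 0.0724 and log2 changes of 0.19 to 0.22 against 0.24, and without both DMSO replicates 1 and 2 (0.21, adjusted p = 0.178). With both compounds HGS differed from DMSO by 0.18 (adjusted p = 0.0851, and 0.0422 without RSL3 replicate 3), and STAM, its partner, by -0.11 when Fer-1 was added to RSL3 (adjusted p = 0.267). In ESCRT-I 1 of 7 tested rose, UBAP1, from 40.6 ± 3.29 to 46.7 ± 0.262 CPM (adjusted p = 0.0499), and that call ended in 13 of 19 alternatives, with adjusted p from 0.0233 to 0.276. The ESCRT-I genes with the smallest p in the other comparisons were VPS37B, at -0.14 when Fer-1 was added (adjusted p = 0.233), and TSG101, at 0.12 with both compounds against DMSO (adjusted p = 0.481), each in a joined locus.

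The lists of this paragraph stand beside the same shares of all tested loci, 7.46% lower and 9.04% higher with RSL3. Of 7 VPS4 cofactors and partners with MIT domains, which bind the tails of ESCRT-III subunits, 1 fell with RSL3 and 0 rose. This was SPAST, the gene of spastin, which CHMP1A and CHMP1B recruit to cut microtubules. It stood at 45.5, 55.3 and 48.9 CPM with DMSO, at 38.1, 41.6 and 38 CPM with RSL3 and at 40.6, 39.2 and 37.5 CPM with both compounds. Both treated groups lay below all DMSO libraries, by 0.35 on the log2 scale each (SE 0.0733 and 0.0732, adjusted p = 0.00115 and 0.00233). Fer-1 added to RSL3 gave 0 of these 7 called, and the smallest p was that of the kinase ULK3 (log2 0.19, unadjusted p = 0.0933, adjusted p = 0.394). Of 6 genes of abscission and the midbody, where ESCRT-III cuts the bridge between daughter cells, 1 fell with RSL3, the scaffold ANLN, which fell by 0.18 (log2, adjusted p = 0.000623), and 0 rose. ANLN also fell by 0.19 with both compounds (adjusted p = 0.000843), a call that ended in limma (adjusted p = 0.052 and 0.0525), and RACGAP1 had the smallest p when Fer-1 was added (log2 0.12, adjusted p = 0.056, 0.0291 without RSL3 replicate 3, and 0.018 to 0.225 over the alternatives). Without DMSO replicates 1 and 2, with 1 DMSO library left, ANLN stood at -0.13 with RSL3 (adjusted p = 0.127) and -0.14 with both compounds (adjusted p = 0.168), and SPAST at -0.32 with both compounds (adjusted p = 0.0771), none of them called.

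Other genes of plasma membrane repair, the calcium-binding annexins, calpains and their partners, were taken as a further list. With RSL3 8 of its 17 tested genes rose and 0 fell, where 9.04% of all loci rose, and over the alternatives 6 to 8 rose. ANXA1, a calcium-dependent membrane-binding protein, stood at 273, 273 and 262 CPM with DMSO, at 401, 386 and 360 CPM with RSL3 and at 321, 316 and 312 CPM with both compounds. These 3 groups did not overlap, and ANXA1 rose by 0.51 on the log2 scale with RSL3 (SE 0.0377, adjusted p = 1.18e-10). ANXA2 rose by 0.33 (adjusted p = 1.6e-08) and its partner S100A10 by 0.36 (adjusted p = 1.76e-05). The other 5 that rose, named after their values were seen, were ANXA5, ANXA6, CAPN1, CAPN2 and EHD1, by 0.17 (CAPN1, adjusted p = 0.0461) to 0.29 (EHD1, adjusted p = 0.0035) on the log2 scale. With Fer-1 added to RSL3 8 of these 17 were lower and 0 higher, where 3.99% of all loci were lower. This comparison and that of RSL3 with DMSO share their RSL3 libraries, so the counts are not independent. The genes are not all the same either. EHD2 and MYOF were lower without a called rise with RSL3, and ANXA6 and CAPN1 rose with RSL3 but were not called lower. The largest falls were 0.35 for EHD1 (adjusted p = 0.00153), 0.35 for EHD2 (adjusted p = 0.00016) and 0.27 for ANXA1 (adjusted p = 1.22e-05). Against DMSO, RSL3 plus Fer-1 had 1 of the 17 higher, ANXA1 by 0.23, where 4.03% of all loci were higher. In this comparison 3 were lower, EHD2, MYOF and CAVIN1 by 0.23, 0.20 and 0.14, where 2.66% of all loci were lower. The EHD2 and CAVIN1 calls ended without DMSO replicate 1 or without RSL3 plus Fer-1 replicate 2. Without both DMSO replicates 1 and 2 the count turned to 3 higher and 0 lower, with MYOF at -0.15 (adjusted p = 0.0932). DYSF, SYT7 and TRIM72 were below the minimum level. Whether this list differs from the ESCRT-III members was not tested.

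**Figure D4:**
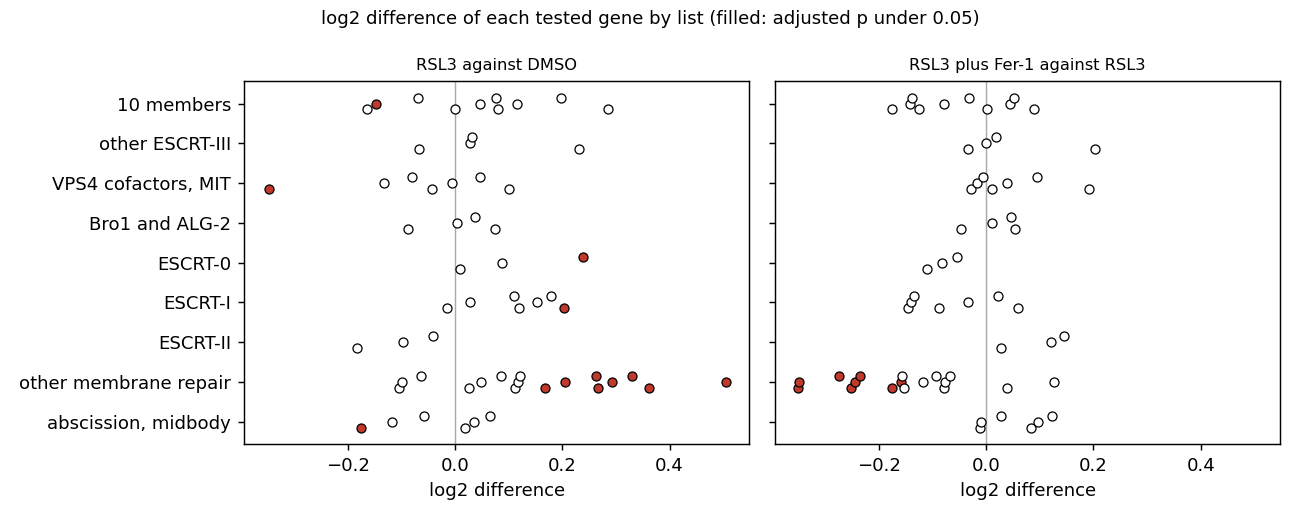
The edgeR log2 difference of every tested gene of each list for RSL3 against DMSO and for RSL3 plus Fer-1 against RSL3; filled points passed at an adjusted p under 0.05. The 10 members hold 1 filled point on the left and 0 on the right. The other membrane repair genes hold 8 on each side, not all of them the same genes.

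The member with the smallest p in any comparison was CHMP2B. The 5 tested single-name loci most like it in log2 CPM over the 9 libraries were YOD1 (Pearson r = 0.964), the locus named MIR1910 (r = 0.959), FAM76B (r = 0.958), HSDL2 (r = 0.934) and FBXL5 (r = 0.93). The 9 points share their group structure and depth, and these are the highest of many values, given as a description.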

How the data were processed

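Total RNA of 9 A549 libraries, 3 per group, was measured by RNA sequencing. The authors deposited 1 table of assembled loci holding an estimated count and an FPKM value per locus and library, per the file headers. The submitters' processing notes name cutadapt 1.9, FastQC and GRCh38. Aligner, assembler, counter and strand setting were not given in the sources used here. The deposited counts were used as whole numbers. Of 43444 loci, 1496 without a gene name, with 0.48 to 0.546% of the counts, stayed out of library sizes and tests. Loci joining several gene names numbered 2501 and took 32.2 to 32.9% of the counts.

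Named loci summed to 38945449 to 45620248 counts per library, and these sums were scaled by TMM factors of 0.99 to 1.01. One edgeR 4.0.16 quasi-likelihood fit in R 4.3.3 over all 9 libraries gave the 3 comparisons, with Benjamini-Hochberg adjustment over the 17297 loci that reached an FPKM of 1 in 3 or more libraries. Alternatives were RLE factors, library totals alone, DESeq2 1.42.0, limma 3.58.1 on log2(FPKM + 1) or log2(FPKM + 0.1), no filter, 2 groups only, a replicate block, unnamed loci kept, summed loci of a member, each library left out, and DMSO replicates 1 and 2 both left out. The fit was also run on simulated data with changes larger than any member change, which does not measure its power at the sizes found here. All members, up to 3 called genes per list and direction, and otherwise the gene with the smallest p of a list were named; further genes are marked in the text. The members, lists and rules were chosen with earlier results of these data known. Exons came from GENCODE 29 and promoter windows from RefSeq.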

Additional observations from a re-analysis of the deposited data

How the results depend on the processing

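Of 576 values of member changes under the alternatives, 541 kept their direction and their side of the threshold, 7 lost the call, 8 gained one and 20 changed sign, all 20 from changes of at most 0.0645 in log2. In the comparison of RSL3 with DMSO, where 1 member was called, the count was 2 with library totals alone, 2 with the summed loci, 3 with DESeq2, 0 without DMSO replicates 1 and 2 (with 1403 loci called) and 1 to 2 with 1 library left out. For RSL3 plus Fer-1 against RSL3 it was 0 under every alternative run, while limma called 563 and 535 loci with pseudocounts of 1 and 0.1. For RSL3 plus Fer-1 against DMSO, where 1 was called, it was 0 in limma with either pseudocount (505 and 511 loci), 0 without DMSO replicates 1 and 2 (443 loci) and 0 to 1 with 1 library left out (711 to 1211 loci). The cause was not tested. VPS4B with RSL3 against DMSO changed sign to 0.000299 (RLE factors), 0.00043 (DESeq2), 0.0045 (2 groups only), 0.000339 (unnamed loci kept) and 0.0184 (without DMSO replicates 1 and 2). CHMP4B with RSL3 plus Fer-1 against RSL3 became -0.000134 with unnamed loci kept, and against DMSO without its replicates 1 and 2 CHMP1B became -0.034 and CHMP5 0.019. With 1 library left out the log2 change ran from -0.0256 to 0.032 for VPS4B (RSL3 against DMSO), from -0.0087 to 0.115 for CHMP2A and -0.0615 to 0.0696 for CHMP4B (RSL3 plus Fer-1 against RSL3), and, for RSL3 plus Fer-1 against DMSO, from -0.0235 to 0.0547 for CHMP1B, -0.00295 to 0.0459 for CHMP3, -0.134 to 0.0352 for CHMP5 and -0.135 to 0.0809 for VPS36. Without DMSO replicates 1 and 2, 67% of the loci called with RSL3 were higher, against 54.8%, and with library totals alone 48.4% were.

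Same-numbered libraries of different groups showed little shared deviation (r of -0.0497 to 0.0657 over 9 pairs). The labels do not state whether the numbers pair the samples, and a weak correlation over all loci cannot decide it. A replicate block gave 2 members called for RSL3 against DMSO, CHMP2B joining at an adjusted p of 0.0393 by edgeR, 0 and 1 in the other comparisons, and 2803, 1068 and 1141 loci. The alternative of loci naming a member alone gives no other value, since 7 loci already do and the other 3 have none. Depth limits CHMP6 most, with 270 to 399 counts per library. Joined loci limit CHMP1B, CHMP3 and VPS4A.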
